A study of Schizosaccharomyces pombe with 4 samples.

Results

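The 36 genes described here are those of the *S. pombe* mitochondrial chromosome whose identifier in the deposited table begins with SPMIT, out of 9111 units in all. They are 11 protein-coding genes and 25 tRNA genes, all annotated on the + strand of chromosome MT (build ASM294v2). The 2 mitochondrial rRNA genes, 21S and 15S, carry other identifiers. They are described beside the 36 genes and are not counted among them. Signal was measured by NET-seq in 4 libraries from 2 biological replicates of 1 strain, YAM2492, in which the RNA polymerase II (RNAPII) subunit Rpb3 carries a FLAG tag. Cells were growing exponentially. The IP group (2 libraries, nascent RNA) holds RNA that came down with RNAPII on anti-FLAG gel, and the Input group (2 libraries, total RNA) holds RNA of the same 2 cultures taken through the same library steps without that purification. The tag is present in both groups, and no IP from an untagged strain was analysed here. The implied depth was 7100000 and 7117477 uniquely mapped reads in IP, against 9082385 and 9823089 in Input, and each of the 36 genes had at least 109 reads in every library.

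Mitochondrial genes are not transcribed by RNAPII. A dedicated single-subunit polymerase, Rpo41, reads the chromosome into long transcripts, and RNase P and RNase Z free the tRNAs by cutting at their ends, which also releases the mRNAs and rRNAs that lie between them. The products serve mainly 2 ends. Most of the mRNAs outside introns encode core subunits of the respiratory chain and of ATP synthase. The rRNAs, the tRNAs and the protein of *var1* belong to the translation apparatus inside the organelle. The comparison of IP with Input thus gives the level of RNAs made by another polymerase in each kind of library.

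Under the authors' scaling the tRNAs differed in direction from the mRNAs, and 4 tRNAs from the other 21, whereas all 36 genes were lower in IP after centring on the median nuclear protein-coding gene. Those 4 are shown first, with the anticodon as the last block of capitals. The earlier block of capitals is the longest run of letters that all 4 share. The sequences are those of RefSeq build ASM294v3, written as DNA from 5′ to 3′, and were matched to the table by amino acid and by neighbouring genes (25 of 25 matched, 23 with the same length).
tRNA Met.01: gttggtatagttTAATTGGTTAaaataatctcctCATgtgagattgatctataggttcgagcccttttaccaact
tRNA Met.02: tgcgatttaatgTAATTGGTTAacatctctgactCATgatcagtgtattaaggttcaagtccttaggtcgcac
tRNA Arg.02: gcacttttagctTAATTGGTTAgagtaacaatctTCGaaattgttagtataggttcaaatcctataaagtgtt
tRNA Ala.01: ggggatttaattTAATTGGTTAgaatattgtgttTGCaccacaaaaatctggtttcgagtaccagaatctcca
The next 4 are the tRNAs with the largest decrease in IP, with the anticodon in capitals.
tRNA Gly.01: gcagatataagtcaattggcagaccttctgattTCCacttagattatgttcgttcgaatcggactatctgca
tRNA Glu.01: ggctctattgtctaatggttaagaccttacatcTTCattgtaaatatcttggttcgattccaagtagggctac
tRNA His.01: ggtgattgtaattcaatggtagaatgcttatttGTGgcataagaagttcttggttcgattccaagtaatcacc
tRNA Lys.01: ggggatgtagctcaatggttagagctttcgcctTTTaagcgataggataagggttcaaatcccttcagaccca

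In all 4 tRNAs of the first set the shared run, TAATTGGTTA, begins at base 13, in the D arm, and reaches over the GG pair that tRNAs commonly carry in the D loop. It occurs 4 times in the mitochondrial chromosome on both strands together, once in each of these genes. None of the other 21 mitochondrial tRNAs holds it, and 3 of those 21 hold its first 8 letters. It is in 0 of 171 nuclear tRNA genes of RefSeq, and in 4 of 266 windows of 73 nt that tile the mitochondrial chromosome. The run was found after the values had been seen, by comparing the 4 sequences, so its match with them is a description and was not tested.

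The 2 Met tRNAs and tRNA Asn.01 were the most abundant RNAs of the 36 genes in IP. Levels are given as RPKM, reads scaled to gene length and library size, on a scale whose absolute height is set by 1 stated library size. Met.02, the initiator tRNA by RefSeq's annotation, had 31868 and 30631 RPKM in the IP libraries, against 16796 and 16223 RPKM in the Input libraries. The groups did not overlap, and the log2 change (IP over Input, on log2(RPKM + 1)) was 0.92 ± 0.13 (SE, n = 2 libraries a group; limma adjusted p = 0.00295). Met.01, the elongator tRNA that reads Met codons inside reading frames, had 16723 and 14458 RPKM in IP, against 3755 and 3879 RPKM in Input. Its change of 2.03 ± 0.19 (limma adjusted p = 0.00103) was the largest increase among the 36 genes under the authors' scaling. Together the 2 Met tRNAs held 39.7% and 35.8% of mitochondrial tRNA reads in IP, against 6.67% and 8.06% in Input.

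The other 2 tRNAs of the first set, which was chosen for higher values in IP under the authors' scaling, were far less abundant. Arg.02, with anticodon UCG, had 1183 and 1189 RPKM in IP, against 398 and 459 RPKM in Input (change 1.47 ± 0.29, limma adjusted p = 0.00936). Ala.01 had 2095 and 2450 RPKM in IP, against 872 and 791 RPKM in Input (change 1.45 ± 0.27, limma adjusted p = 0.00798). For both, each IP library was above each Input library. Arg.02 and Ala.01 are named here after their values were seen. No other tRNA had both IP values above both Input values.

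Of the other 21 tRNAs, 17 fell in IP and 4 did not pass the test, and in 20 of the 21 both IP values lay below both Input values. The background of the comparison runs the other way: of 8912 units tested, 92.8% were called higher and 0.920% lower in IP, and 1.31% had both IP values below both Input values. Over the 25 tRNAs the median change was −1.36, against −0.59 over 136 nuclear tRNA genes tested and 2.90 over all units tested. Among mitochondrial tRNA genes 68.0% were called lower and 4 of 25 higher, and among nuclear ones 41.2% were called lower and 14.0% higher. IP and Input came from the same cultures, so a change here compares kinds of library and not states of the cells. The libraries were made from whole cultures, so how an RNA was spread over cells cannot be told.

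tRNA Asn.01, whose gene ends directly before that of 15S rRNA, was by mean level the highest of the 36 genes in Input and the second highest in IP, where its replicate range overlapped that of Met.01. It had 15422 and 20645 RPKM in IP, against 52747 and 34156 RPKM in Input, a change of −1.25 ± 0.30 (limma adjusted p = 0.0161). Leu.02 (anticodon UAG), the fourth in IP, had 6011 and 7287 RPKM in IP, against 9582 and 7638 RPKM in Input. The difference between IP and Input did not pass the test (change −0.37 ± 0.23, limma adjusted p = 0.196).

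At the low end of the tRNAs in IP stood Cys.01, Trp.01, Phe.01 and Val.01. Cys.01 had 514 and 527 RPKM in IP, against 815 and 1425 RPKM in Input, and was not called (change −1.05 ± 0.40, limma adjusted p = 0.0663). Trp.01 had 563 and 552 RPKM in IP, against 2831 and 2866 RPKM in Input, the closest pairs of replicates among these 4. It fell by 2.35 on the log2 scale (SE 0.26, limma adjusted p = 0.00156). Phe.01 had 925 and 861 RPKM in IP, against 2165 and 2429 RPKM in Input (change −1.36 ± 0.26, limma adjusted p = 0.00868). Val.01 had 1011 and 941 RPKM in IP, against 3525 and 2850 RPKM in Input (change −1.70 ± 0.27, limma adjusted p = 0.00464). These last 3 fell while Cys.01, with a wider gap between its Input libraries, did not pass.

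The largest decreases, chosen after the values were seen, were those of the 4 tRNAs of the second set of sequences. Gly.01 had 3108 and 2771 RPKM in IP, against 38125 and 22352 RPKM in Input (change −3.31 ± 0.33, limma adjusted p = 0.00117). Glu.01 had 3654 and 3403 RPKM in IP, against 33447 and 17449 RPKM in Input (change −2.78 ± 0.38, limma adjusted p = 0.00280). Both were among the most abundant tRNAs of Input and ranked lower among the tRNAs in IP. His.01 had 1553 and 1834 RPKM in IP, against 15138 and 7539 RPKM in Input (change −2.66 ± 0.42, limma adjusted p = 0.00458). Lys.01 had 1615 and 1819 RPKM in IP, against 9846 and 8809 RPKM in Input (change −2.44 ± 0.22, limma adjusted p = 0.000966). Input replicate 2 was at 0.586 (Gly.01), 0.522 (Glu.01) and 0.498 (His.01) of Input replicate 1, so that the size of these decreases depends on the Input library used. The 2 tRNAs not yet named that missed the threshold were Thr.01 (−0.57 ± 0.31, limma adjusted p = 0.146) and Gln.01 (−0.14 ± 0.33, limma adjusted p = 0.693). Gln.01 was the 1 tRNA whose IP and Input values overlapped. The other 9 tRNAs called lower changed by between −2.20 (Leu.01 and Ile.02) and −1.23 (Asp.01).

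**Figure D1:**
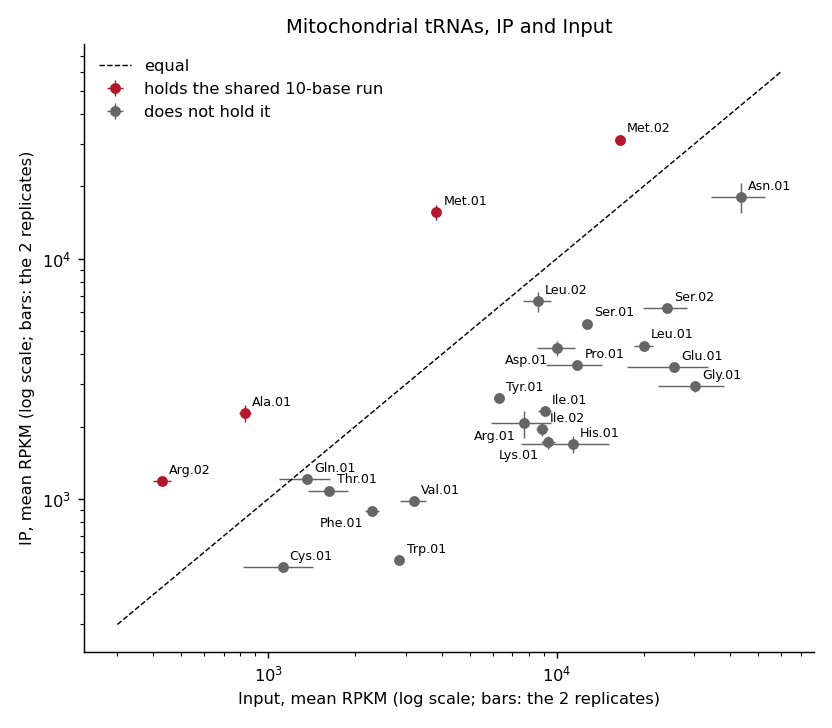
Mean level of the 25 mitochondrial tRNAs in IP (y axis, RPKM, log scale) against Input (x axis, RPKM, log scale), with bars from the lower to the higher replicate. The 4 tRNAs that hold the shared 10-base run (red) lie above the dashed line of equal levels, and the other 21 (grey) lie below it, Gln.01 nearest to it, under the authors' scaling (all are lower in IP after centring on the median nuclear protein-coding gene). The run was defined from these 4 tRNAs, so its presence in every point above the line was fixed by that choice.

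Some other features of the 4 tRNAs lay among those of the rest and some at their edge. Their GC content was between 30.1% and 38.4%, inside the range of 27.5% to 47.9% over all 25. Their lengths of 73 to 75 nt also lay inside the range of 69 to 86 nt. Arg.02 and Ala.01 had the lowest mean levels of the 25 in Input. Arg.02 read fewer internal codons than any other tRNA apart from the initiator Met.02, to which the counting assigned none because start codons were left out. Each gene lies in a different place: Met.01 (MT 4591 to 4665) follows 15S rRNA by 38 nt, Met.02 (MT 14081 to 14153) opens the tRNA cluster behind *cob1*, Arg.02 (MT 17460 to 17532) lies 117 nt behind tRNA Tyr.01, and Ala.01 (MT 18057 to 18129) stands 274 nt ahead of tRNA Glu.01. That last gap, measured between genes annotated in the table, is wider than the one behind any other tRNA. A gene absent from the table could lie in such a gap. The median gap behind was 114.5 nt for the 4 tRNAs, against 21 nt for the 17 called lower. It was 110 nt for the 4 tRNAs not called, so a wide gap was not particular to the first 4, a description with no test. Across the 25 tRNAs, Spearman's coefficient of the change with position was −0.08, with length 0.10 and with the gap behind 0.09. With GC content it was −0.32 and with mean Input RPKM −0.53. The last of these shares the Input values with the change itself, and genes are not independent replicates.

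The number of codons each tRNA reads was counted over the 2040 internal codons of the 8 reading frames outside introns, read from RefSeq ASM294v3. Leu.01 reads the most (220 codons, UUA and UUG) and Arg.02 the fewest apart from the initiator (7 codons). Without the initiator, Spearman's coefficient of the codon count with the level over 24 tRNAs was 0.27 and 0.28 in the IP libraries, against 0.38 and 0.37 in the Input libraries. Phe.01 reads 168 codons and was among the 4 lowest in IP, whereas Met.01 reads 48 and was among the 4 highest. GC content ran with the level more closely, with coefficients of 0.42 and 0.41 over 25 tRNAs in IP, against 0.58 and 0.67 in Input. Order by level was well kept between replicates (coefficient 0.99 in IP, against 0.93 in Input) and less so between the group means (0.69). Of the 24 pairs of neighbours in the order of level, replicate ranges overlapped in 8 in IP, against 17 in Input.

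Under the authors' scaling (all were lower in IP after centring on the median nuclear protein-coding gene), the 11 protein-coding genes had higher values in both IP libraries than in both Input libraries, as had 95.6% of all units tested, and 6 of the 11 passed the test (54.5%, against 92.8% of all units). Their median change was 1.32, with a range from 1.16 to 1.88, against a median of 3.28 over 5057 nuclear protein-coding genes tested. None was called lower. Input replicate 2 was above Input replicate 1 for each of them, by 1.59 to 1.99 times (median 1.77), and the same ratio had a median of 1.96 over nuclear protein-coding genes and of 0.907 over the mitochondrial tRNAs. In IP the ratio of the replicates was between 0.891 and 1.22. The cause of the Input difference was not tested.

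**Figure D2:**
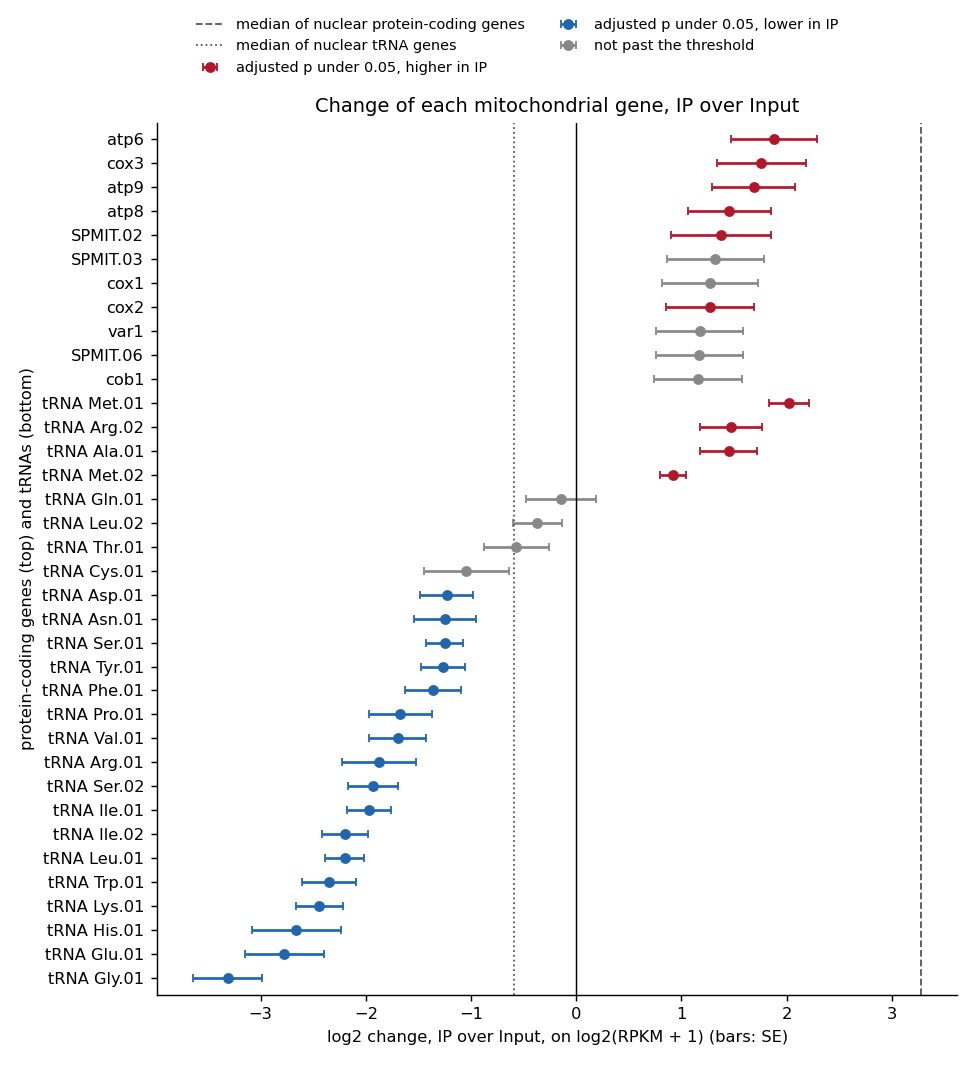
Log2 change of the 36 genes, IP over Input, on log2(RPKM + 1) (x axis), with bars for the SE, for protein-coding genes (top) and tRNAs (bottom). Protein-coding genes lie between 1.16 and 1.88, left of the dashed median of nuclear protein-coding genes at 3.28, and tRNAs reach from −3.31 to 2.03, under the authors' scaling (all are negative after centring on that gene class).

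The ATP synthase genes gave the highest and one of the lowest levels among the mRNAs. *atp9* encodes the ring subunit through which protons pass and had 2237 and 1994 RPKM in IP, against 496 and 867 RPKM in Input. It rose by 1.69 ± 0.40 (limma adjusted p = 0.0158) and was the highest protein-coding gene in each library. *atp6*, for the membrane subunit beside that ring, had 563 and 663 RPKM in IP, against 129 and 212 RPKM in Input, and its change of 1.88 ± 0.41 (limma adjusted p = 0.0122) was the largest of the mRNAs. *atp8*, for a small subunit of the same membrane part, had 264 and 305 RPKM in IP, against 81.6 and 130 RPKM in Input. It was called higher (1.46 ± 0.40, limma adjusted p = 0.0250), but not with the replicate number as a block (limma adjusted p = 0.0920). The gene is 147 nt long and rested on 109 and 187 reads in Input.

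Of the 3 cytochrome c oxidase subunits, *cox3* and *cox2* rose and *cox1* did not pass the test. *cox3* had 746 and 753 RPKM in IP, against 166 and 295 RPKM in Input (change 1.76 ± 0.42, limma adjusted p = 0.0169). *cox2*, which carries the copper centre that takes electrons from cytochrome c, had 845 and 914 RPKM in IP, against 272 and 485 RPKM in Input. Its change was 1.27 ± 0.42 (limma adjusted p = 0.0435, and 0.0917 with the replicate block). *cox1*, the catalytic subunit, had 389 and 426 RPKM in IP, against 121 and 233 RPKM in Input, counted over exons and introns together (change 1.27 ± 0.46, limma adjusted p = 0.0553). *cob1*, the cytochrome b of complex III, had 788 and 875 RPKM in IP, against 279 and 495 RPKM in Input (change 1.16 ± 0.42, limma adjusted p = 0.0565). *var1*, named *rps3* by RefSeq, encodes a protein of the small mitochondrial ribosomal subunit. It had 133 and 150 RPKM in IP, against 47.5 and 81.3 RPKM in Input (change 1.18 ± 0.41, limma adjusted p = 0.0522), the lowest level of the genes outside introns. The changes of *cox1*, *cob1* and *var1* thus missed the threshold narrowly, and *cox2* passed it narrowly.

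The last 3 protein-coding genes are reading frames inside introns, and the table counts their reads in the host gene too. SPMIT.02 and SPMIT.03 lie in the 2 introns of *cox1*, and SPMIT.06 in the intron of *cob1*. SPMIT.02 had 159 and 185 RPKM in IP, against 46.4 and 92.3 RPKM in Input (change 1.37 ± 0.47, limma adjusted p = 0.0487, and 0.113 with the replicate block). SPMIT.03 had 102 and 124 RPKM in IP, against 31.7 and 61.5 RPKM in Input, and was the lowest of the 36 genes in each group (change 1.32 ± 0.46, limma adjusted p = 0.0505). SPMIT.06 had 943 and 1033 RPKM in IP, against 329 and 583 RPKM in Input (change 1.17 ± 0.41, limma adjusted p = 0.0530). SPMIT.06 was second only to *atp9* among protein-coding genes, above its host *cob1* in every library.

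The order of the mRNAs by level was nearly the same in the 2 groups, with Spearman's coefficient of 0.98 over the 11 genes. In IP, replicate ranges of neighbours in that order overlapped for 1 of 10 pairs (*cox2* and *cob1*). In Input they overlapped for all 10 pairs. There replicate 2 was above replicate 1 by 1.59 to 1.99 times for every one of the 11 genes, which widens each range. Spearman's coefficient between the 2 Input replicates was 0.98, so the overlap does not settle whether neighbours differ. Position along the chromosome ordered the levels loosely. Over the 8 genes outside introns Spearman's coefficient of the start with RPKM was 0.33 in both IP libraries, against 0.21 and 0.14 in Input, and over the 25 tRNAs it was −0.21 and −0.23 in IP, against −0.23 and −0.18 in Input. *atp9* lies between tRNA Ser.02, which fell, and tRNA Ala.01, which rose under the authors' scaling and was lower after centring.

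**Figure D3:**
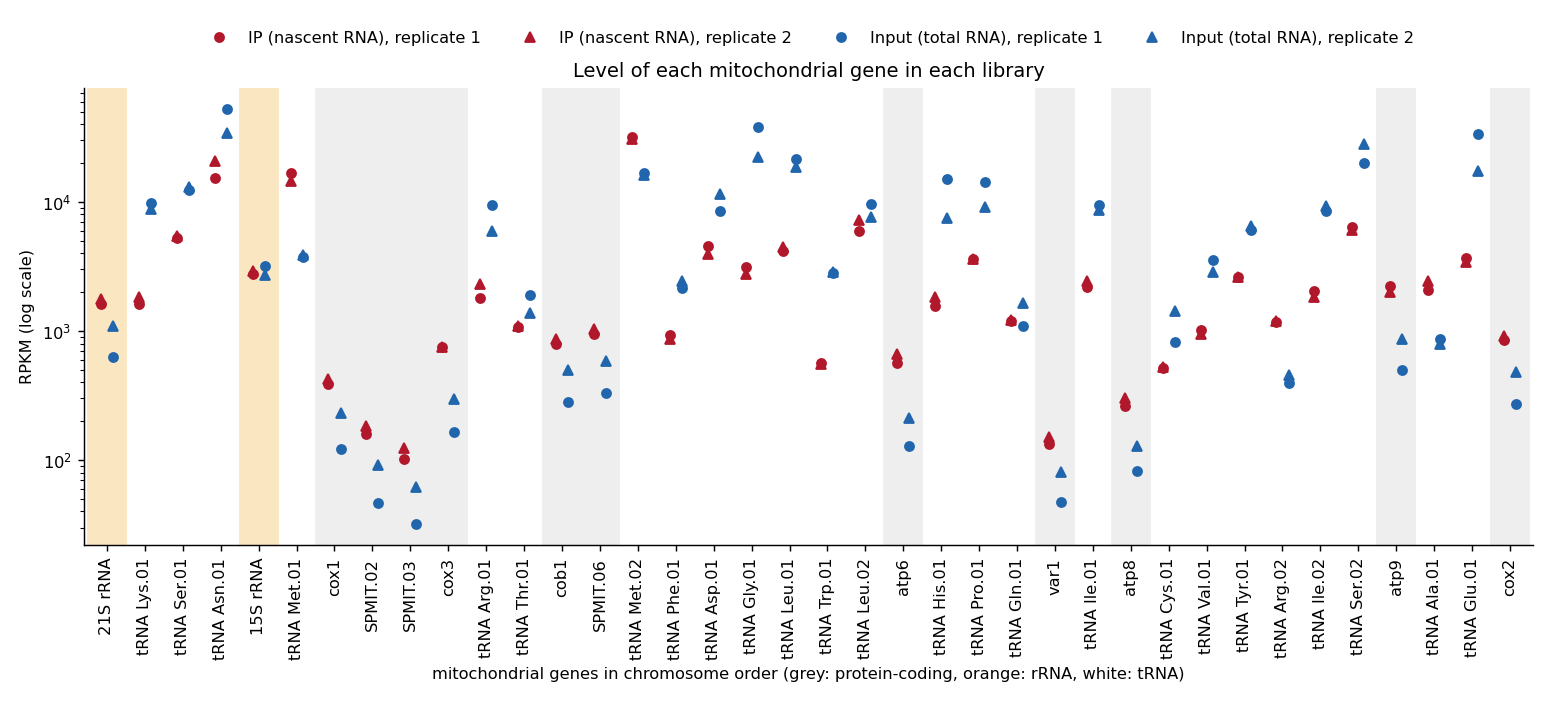
RPKM (y axis, log scale) of the 36 genes and of 21S and 15S rRNA in chromosome order (x axis), with a point for each IP library (red) and each Input library (blue), circles for replicate 1 and triangles for replicate 2. Red points lie above blue ones for every protein-coding gene (grey), below them for most tRNAs (white), and above them for tRNAs Met.01, Met.02, Arg.02 and Ala.01, under the authors' scaling (all are lower in IP after centring on the median nuclear protein-coding gene).

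The exons and introns of *cox1* and *cob1*, the 2 split genes, were compared next. Exons were read from the table's coding segments, and intron reads were taken as reads of the gene minus those of its exons. In *cox1* (MT 4886 to 8790, 3 exons and 2 group I introns by RefSeq) exons had 762 and 815 RPKM in IP, against 239 and 452 RPKM in Input. Its introns had 126 and 153 RPKM in IP, against 38.2 and 77.8 RPKM in Input. The intron to exon ratio was 0.176 ± 0.015 in IP and 0.166 ± 0.008 in Input (SD, n = 2 each), and the values of the groups overlapped (0.166 and 0.187 in IP, against 0.160 and 0.172 in Input). Exon 2, the shortest at 345 nt, had the lowest exon density in each library, 519 and 561 RPKM in IP, against 176 and 337 RPKM in Input.

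*cob1* (MT 10173 to 13862, 2 exons and 1 group II intron by RefSeq) showed the reverse order. Its intron had 915 and 999 RPKM in IP, against 338 and 597 RPKM in Input, and its exons had 511 and 605 RPKM in IP, against 151 and 275 RPKM in Input. The intron to exon ratio was 1.72 ± 0.10 in IP and 2.21 ± 0.04 in Input (SD, n = 2 each). The groups did not overlap (1.79 and 1.65 in IP, against 2.24 and 2.17 in Input), and 0.333 is the smallest p that an exact permutation test of 2 against 2 libraries can give, two-sided. Introns are 68.5% of the length of *cob1* and took 79.5% (95% Wilson interval 79.0 to 80.1) and 78.2% (77.6 to 78.7) of its reads in IP, against 82.9% (82.1 to 83.7) and 82.5% (82.0 to 83.1) in Input. In *cox1* they are 58.7% of the length and took 19.0% (18.3 to 19.8) and 20.99% (20.3 to 21.7) of reads in IP, against 18.5% (17.4 to 19.7) and 19.6% (18.8 to 20.5) in Input. A read across a splice junction is lost by a mapper without spliced alignment, and how a read touching an exon border was counted is not given in the sources used here, so the ratios hold for this table.

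**Figure D4:**
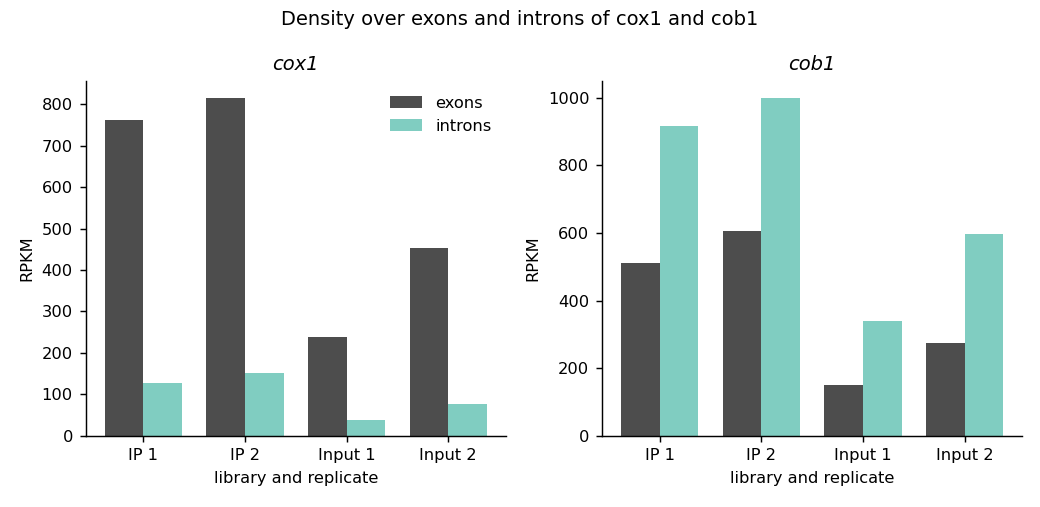
RPKM (y axis) over exons (dark) and introns (light) of *cox1* (left) and *cob1* (right) in each library (x axis). The introns of *cox1* are below its exons in all 4 libraries, at 0.160 to 0.187 of their density, and the intron of *cob1* is above its exons in all 4, at 1.65 to 2.24 times.

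The 2 rRNA genes did not pass the test in either direction. 21S rRNA, of the large ribosomal subunit, had 1622 and 1764 RPKM in IP, against 628 and 1095 RPKM in Input (change 1.03 ± 0.39, limma adjusted p = 0.0648). 15S rRNA, of the small subunit, had 2754 and 2934 RPKM in IP, against 3205 and 2719 RPKM in Input (change −0.05 ± 0.24, limma adjusted p = 0.833). The IP and Input values thus overlapped for 15S and not for 21S. After centring on the median nuclear protein-coding gene both were called lower in IP, 21S at −2.48 (limma adjusted p = 7.20e-09) and 15S at −3.56 (limma adjusted p = 4.71e-10), as were 54.6% of all units. The ratio of Input replicate 2 to replicate 1 was 1.74 for 21S, like that of the mRNAs, and 0.849 for 15S, like that of the tRNAs. On the other strand the table annotates 1 unit, XUT0001 (MT 3202 to 4550), antisense to 15S rRNA and named here after its values were seen. It had 97 and 123 reads in IP, against 15 and 45 reads in Input, or 10.1 and 12.8 RPKM against 1.22 and 3.40 RPKM, and was called higher under the authors' scaling (1.99 ± 0.41, limma adjusted p = 0.0102), as were 92.8% of all units, but lower after centring (−1.52, limma adjusted p = 4.42e-06).

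By read number, the 36 genes (reading frames inside introns counted once, in their host) held 1.58% and 1.66% of an IP library, against 2.47% and 2.21% of an Input library. The IP mean of 1.62% ± 0.06 was thus 0.691 of the Input mean of 2.34% ± 0.19 (SD, n = 2 each). On the log2 scale that difference was −0.53. It was −2.79 when all reads of the 36 genes, tRNA reads included, were divided by the table's reads outside tRNA, rRNA and snRNA. That value is a ratio and not a share, since its tRNA reads are missing from the divisor. The protein-coding and tRNA parts of the share of a library ran in opposite directions. Protein-coding genes held 0.674% and 0.730% of IP, against 0.210% and 0.377% of Input, and tRNAs held 0.903% and 0.927% of IP, against 2.26% and 1.83% of Input. With both rRNAs added, tRNAs made up 37.2% and 36.0% of the mitochondrial reads of IP, against 72.9% and 63.0% of those of Input. The rRNAs made up 35.0% and 35.6% in IP, against 20.4% and 24.0% in Input, and protein-coding genes 27.8% and 28.4% in IP, against 6.76% and 13.0% in Input. Of all tRNA reads in the table, nuclear ones included, mitochondrial tRNAs were 16.15% and 16.02% in IP, against 2.39% and 2.04% in Input. Those shares are of summed reads. In Input they were close to the 2.26% and 1.83% of the whole library, so tRNA genes held most of the Input reads. In IP they were far above the 0.903% and 0.927% of the library, so tRNA genes held a small part of the IP reads. Gene by gene, the median change under the authors' scaling was −1.36 over the 25 mitochondrial tRNAs and −0.59 over the 136 nuclear ones tested. The highest mean RPKM of a nuclear tRNA gene was 94583 in IP, against 2099877 in Input. The intervals given for shares of reads account for counting error alone, since the sources used here name no molecular identifiers.

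**Figure D5:**
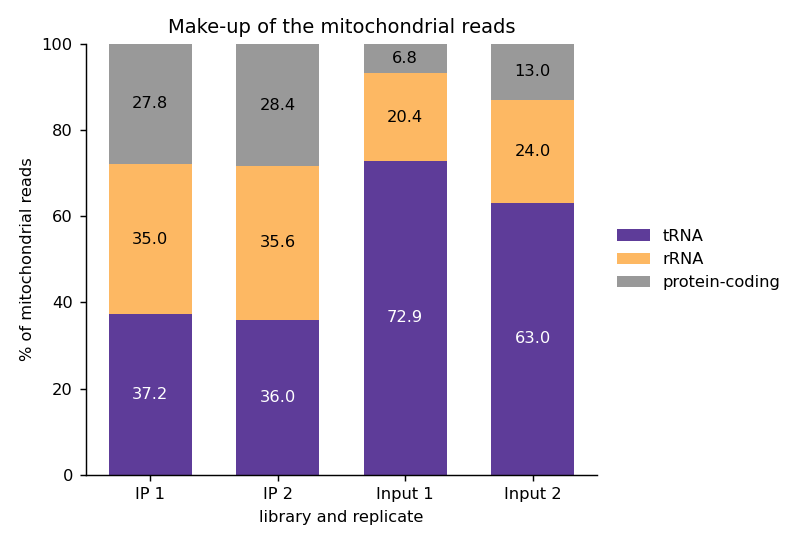
Share of mitochondrial reads (y axis, %) that fell in tRNA, rRNA and protein-coding genes in each library (x axis), with the value printed in each part. tRNAs make up 37.2% and 36.0% in the IP libraries, against 72.9% and 63.0% in the Input libraries.

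The direction of every increase depended on the scaling. Centring each library on its median nuclear protein-coding gene takes 3.51, the difference between the groups in that median, from every change. All 36 genes were then called lower in IP, as were 54.6% of all units, while 9.17% were called higher. The protein-coding genes were then lower by 1.63 (*atp6*) to 2.35 (*cob1*) on the log2 scale, at a median of −2.18, and the tRNAs changed by −6.82 to −1.48, at a median of −4.87. All 136 nuclear tRNA genes tested were called lower in that fit too, at a median of −4.10. Relative to the median RNAPII-transcribed gene, each mitochondrial gene was thus lower in IP, and relative to the uniquely mapped reads the 11 protein-coding genes and 4 tRNAs had higher values. Without IP replicate 1 or IP replicate 2, 2 genes (tRNAs Met.01 and Met.02) were called higher under the authors' scaling, and 9 and 8 were called lower, against 10 and 17 with all libraries. With the replicate block 7 were called higher and 17 lower, against 95.0% and 0.886% of all units.

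Nuclear genes for subunits of the same complexes, which RNAPII transcribes, changed more. Of 29 listed nuclear subunits of the respiratory chain and ATP synthase, 28 were matched by symbol, and all 28 were called higher in IP, as were 92.8% of all units and 98.4% of nuclear protein-coding genes. Their median change was 3.82, against 3.28 over nuclear protein-coding genes and 2.90 over all units tested. It was 1.32 over the 11 mitochondrial protein-coding genes, which include *var1* and the 3 reading frames inside introns. After centring, 10 of the 28 were called higher and 0 lower (18 did not pass), against 9.17% and 54.6% of all units. Of the 5057 nuclear protein-coding genes tested, 634 were then called higher and 1768 lower. *cyc1*, for cytochrome c, was the highest of them by mean IP level, with 245 and 234 RPKM in IP, against 8.02 and 21.5 RPKM in Input, and *cox7* the lowest by that measure, with 39.8 and 31.7 RPKM in IP, against 2.22 and 2.74 RPKM in Input. Mitochondrial *cox2*, whose product takes electrons from cytochrome c, stood at a higher level than *cyc1* in every library, although *cyc1* changed more (4.08 ± 0.56, limma adjusted p = 0.00286).

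Of 24 listed nuclear factors for transcription, RNA processing and translation in mitochondria, 21 were matched, and all 21 were called higher in IP, with a median change of 3.35, again beside 92.8% of all units and 98.4% of nuclear protein-coding genes. After centring, 6 were called higher and 4 lower, against 9.17% and 54.6% of all units, and against 634 and 1768 of 5057 nuclear protein-coding genes tested. *rpo41*, the mitochondrial RNA polymerase itself, had 26.2 and 24.6 RPKM in IP, against 1.22 and 3.08 RPKM in Input (change 3.13 ± 0.37, limma adjusted p = 0.00184). The elongation factor genes *tuf1* and *tsf1* were the highest and the lowest of the list by mean IP level. *tuf1* had 106 and 95.8 RPKM in IP, against 6.01 and 10.5 RPKM in Input, and *tsf1* had 7.86 and 9.06 RPKM in IP, against 0.110 and 0.442 RPKM in Input, from 3 and 13 reads. Per length, the median of the 11 mitochondrial protein-coding genes stood at 613 RPKM in IP and 177 RPKM in Input. The median nuclear subunit gene stood at 60.4 RPKM in IP and 3.29 RPKM in Input. The median gene of the second list stood at 23.2 RPKM in IP and 1.30 RPKM in Input.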

How the data were processed

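RNA was profiled by NET-seq in 2 IP and 2 Input libraries of *S. pombe*. The authors removed adapters, aligned 50-nt reads to ASM294v2 with Bowtie (unique hits, 2 mismatches allowed) and scaled every library by its number of such reads. The deposited signal is given per feature and strand, as normalized read counts and as densities. How a read touching several features was counted is not given in the sources used here. Dividing each column by its smallest non-zero value gave whole numbers for 100.0% of entries (tolerance 1e-06). These reads were put on an RPKM scale with 7100000 reads for IP replicate 1. The 4 columns of replicate sums were not used.

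IP and Input were compared by limma with a trend on log2(RPKM + 1), two-sided. The fit covered the 8912 of 9111 units that had a read in any library, with Benjamini-Hochberg adjustment over all of them and a threshold of 0.05. A change on this scale understates that of low units. The labels state that the Input libraries came from the same biological samples as the IP libraries, so equal replicate numbers pair them. Their replicate differences correlated at 0.0593 over 8912 units and 0.00296 over the 36 genes. edgeR and DESeq2 were run on the recovered reads as alternatives, and edgeR with TMM and DESeq2 each called 0 of the 36 genes higher and 36 lower. On simulated data with equal library totals and 200 changed units among 6208, limma recovered 199, with 6 false calls. In the real libraries 92.8% of units were called higher, so that recovery does not carry over to them. Other alternatives changed the pseudocount, filter, scaling, trend, block and libraries, and 4 recomputed values came from alternatives added after the data were seen.

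The genes and lists were chosen with earlier results of these data known. Values in each library were given for every protein-coding gene and for the 4 tRNAs highest and the 4 lowest in mean IP RPKM. Other tRNAs were given by range or named as chosen afterwards, and of each nuclear list the highest, the lowest and *rpo41* were named. In the RefSeq mitochondrial chromosome (ASM294v3, not the build of the files) 99.4% of 50-mers were unique, and its coordinates were not mixed with those of the table. The tools were limma 3.58.1, edgeR 4.0.16 and DESeq2 1.42.0 under R 4.3.3, with Python 3.11.15 for the rest.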

Additional observations from a re-analysis of the deposited data

How the results depend on the processing

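Under the pseudocounts, filters, block, untrended limma and edgeR with the authors' totals, 7 to 15 of the 36 genes were called higher and 17 or 18 lower. Of these, the replicate block changed the calls of SPMIT.02, atp8 and cox2 and no other. Leaving out 1 library gave 2 to 15 higher and 8 to 19 lower. Centred on the median nuclear protein-coding gene, by edgeR with TMM and by DESeq2, 0 were higher and 36 lower, and with the replicate block added to the centring or to TMM the counts were again 0 and 36. Library totals without tRNA, rRNA and snRNA gave 0 and 35, and quantile normalization 5 and 18.

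The median change of protein-coding genes was 1.32, but −2.18 after centring, −2.74 with TMM and 0.39 with quantile normalization (0.86 to 1.79 without 1 library). That of tRNAs was −1.36, and −4.87 after centring, −5.51 with TMM and −1.12 with quantile normalization (−1.56 to −1.41 without 1 library).

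The genes whose change turned negative are given in the order cox1, SPMIT.02, SPMIT.03, cox3, cob1, SPMIT.06, atp6, var1, atp8, atp9, cox2, tRNAs Met.01, Met.02, Arg.02 and Ala.01, and 21S rRNA. After centring their log2 changes were −2.23, −2.13, −2.18, −1.75, −2.35, −2.34, −1.63, −2.33, −2.05, −1.82, −2.23, −1.48, −2.58, −2.04, −2.06, −2.48. With library totals without tRNA, rRNA and snRNA they were −1.92, −1.81, −1.85, −1.44, −2.04, −2.03, −1.31, −2.01, −1.73, −1.51, −1.92, −1.17, −2.28, −1.73, −1.75, −2.17. By edgeR with TMM they were −2.81, −2.70, −2.74, −2.33, −2.93, −2.92, −2.20, −2.90, −2.61, −2.41, −2.82, −2.13, −3.25, −2.64, −2.71, −3.06. By DESeq2 they were −2.88, −2.76, −2.81, −2.39, −3.00, −2.98, −2.27, −2.96, −2.68, −2.47, −2.88, −2.20, −3.32, −2.72, −2.79, −3.13. Quantile normalization turned cox1 (−0.31), SPMIT.02 (−1.09), SPMIT.03 (−1.47), var1 (−1.42), atp8 (−0.50), Asn.01 (0.40) and Leu.02 (0.69), and 15S rRNA was at −0.17 to 0.064 without 1 library. The causes of the changes under quantile normalization were not tested.

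The share of a library, IP over Input, was −0.53 on the log2 scale (−0.61 to −0.45 without 1 library). All reads of the 36 genes, tRNA reads included, over the reads outside tRNA, rRNA and snRNA gave −2.79, which is a ratio and not a share. tRNAs held 56.6% of the reads of the 36 genes in IP, or 48.6% with reading frames inside introns counted both in themselves and in their host (55.9% to 57.3% without 1 library), against 87.2% in Input (82.9% to 91.5%). The intron to exon ratio of cob1 in Input was 2.21, or 2.15 from the reading frame inside its intron. Depth limited little here, since the lowest count was 109 reads. With 2 libraries a group no exact test of a single value could go below a p of 0.333.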
